A study of Gallus gallus with 21 samples.

Results

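Nuclear genes of oxidative phosphorylation were followed in the retina of untreated chickens over the first days after hatching. They were chosen by symbol: every NDUF, SDHA to SDHD, UQCR, COX4 to COX8 and ATP5 gene, with CYC1 and CYCS, that reached 0.5 CPM (reads of a gene scaled to a common library total) in at least 7 of 21 libraries. Of 83 matching genes in a table of 18631 genes, 80 passed that filter, as did 12614 genes in all. CYC1 was not analysed here. All groups were wild-type White Leghorn birds, without treatment and under standard light. The labels start the birds at postnatal day 3, and retinas were collected 1 day later (postnatal day 4), 3 days later (postnatal day 6) and 6 days later (postnatal day 9), with 7 libraries at each age. Each library was made from total RNA after removal of ribosomal RNA. In the study these were control animals for work on lens-imposed defocus, and the comparisons ask how retinal transcripts differ with age in eyes without a lens.

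Oxidative phosphorylation passes electrons from NADH and succinate through complexes I to IV of the inner mitochondrial membrane to oxygen, and complex V uses the resulting proton gradient to make ATP. Most subunits are encoded in the nucleus and imported, while a few core subunits are encoded in mitochondrial DNA, so that both genomes contribute to complexes I, III, IV and V. Photoreceptors pack their mitochondria into the inner segment and are known for a high demand for ATP.

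Grouped by symbol, the members comprised 34 of 35 matching subunit genes of complex I, 7 of 8 complex I assembly factors (NDUFAF genes), 4 of 4 genes of complex II, 8 of 8 of complex III, cytochrome c (CYCS), 8 of 9 of complex IV and 18 of 18 of complex V. The groups follow the symbols alone, so that NDUFA4, known in mammals as a subunit of complex IV, is counted with complex I, and ATP5SL, known in human cells as an assembly factor of complex I, with complex V. The 3 genes that did not pass were NDUFA11, a complex I subunit with 6 libraries at 0.5 CPM or more, NDUFAF8, an assembly factor with 1 such library, and COX8A, a complex IV subunit with 0. They averaged 0.411, 0.217 and 0.108 CPM over the 21 libraries. Just inside the filter stood NDUFAF3, an assembly factor with 9 libraries and a mean of 0.51 CPM, ATP5A1W with 13, ATP5S and ATP5SL with 16 each (0.613 and 0.697 CPM), and NDUFB7 with 18 (0.926 CPM). ATP5A1W passed only through libraries that hold transcripts of chromosome W, described further on. None of these 5 genes was called in an age comparison. Their smallest adjusted p was 0.108, for NDUFB7 at 3 days against 1 day.

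Estimated from the steps between low values, the libraries held 27.7 to 41.5 megareads, so that 1 read was worth 0.0241 to 0.0361 CPM. The genes listed took 29.9% to 31.9% of the reads at 1 day, 30.8% to 33.3% at 3 days and 32.9% to 34.2% at 6 days. The ranges of this share at 1 and 6 days did not overlap, so age comparisons on the CPM scale mix both differences. Photoreceptor markers summed to 1741 to 2177 CPM at 1 day, 1931 to 2249 CPM at 3 days and 2039 to 2576 CPM at 6 days, and markers of Müller glia to 971 to 1264 CPM over all libraries. The single gene of 9 erythroid markers that the table lists stayed at or under 0.055 CPM, and 8 listed muscle genes, of which 1 passed the filter, summed to 0.526 to 1.92 CPM. Over all libraries, markers of pigment epithelium summed to 19.8 to 26.6 CPM, of vessels to 41.5 to 71.6 CPM and of leukocytes to 7.88 to 13.9 CPM. HINTW, a W-linked gene, reached 121 to 147 CPM in 13 libraries, while the remaining 8 had 0.0286 to 0.549 CPM. The 13 libraries were 3, 4 and 6 of 7 at 1, 3 and 6 days. In birds the female carries chromosomes Z and W. The labels do not give sex, nor whether 1 bird gave more than 1 library, so p-values measure the spread between libraries.

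CPM values are not corrected for transcript length, so the levels of different members cannot be ranked against each other. The 34 subunit genes of complex I summed to 375 ± 24.2 CPM at 1 day, 387 ± 17.7 CPM at 3 days and 413 ± 23.4 CPM at 6 days (SD, n = 7 each). The 4 genes of complex II summed to 79.9 ± 4.85, 83.8 ± 5.49 and 90.5 ± 3.71 CPM at those ages. For complex IV the sums were 116 ± 3.12, 113 ± 11.7 and 113 ± 5.37 CPM. On this scale the mean sums of complexes I and II, like those of complexes III and V given below, stood highest at 6 days. That of complex IV stood highest at 1 day. The ranges of all of them overlapped between ages. The complex IV sum holds COX7C, on chromosome Z, which averaged 7.77 CPM in libraries with W-linked transcripts and 15.1 CPM in those without. Libraries with such transcripts were 3, 4 and 6 of 7 at 1, 3 and 6 days, so the order of the complex IV sums mixes age with that split. The 8 genes of complex III summed to 102 ± 4.13, 99.4 ± 4.41 and 106 ± 7.76 CPM, and the 18 of complex V to 265 ± 14.1, 265 ± 20.7 and 273 ± 13.9 CPM. Members on Z or W also enter the sums of complexes I and V. As a share of the summed CPM of the genes listed, complex III took 0.0330%, 0.0312% and 0.0318% at those ages. Complex IV took 0.0373%, 0.0356% and 0.0340%, and complex V 0.0854%, 0.0834% and 0.0817%. The mean shares of complexes I and II were highest at 6 days. Complex I took 0.121%, 0.121% and 0.124% at 1, 3 and 6 days, with an SD of 0.00472 to 0.00702 percentage points. Its differences between ages were smaller than that SD. Complex II took 0.0258%, 0.0263% and 0.0271%, with an SD of 0.00105 to 0.00129 percentage points. All these ranges overlapped between ages. All 80 members together took 0.323%, 0.317% and 0.319% of the summed CPM of the genes listed at 1, 3 and 6 days. The SD of that share within an age was 0.00993 to 0.0171 percentage points, more than the differences between the ages. In bulk tissue, fewer cells of a type and less RNA per cell cannot be told apart.

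**Figure D1:**
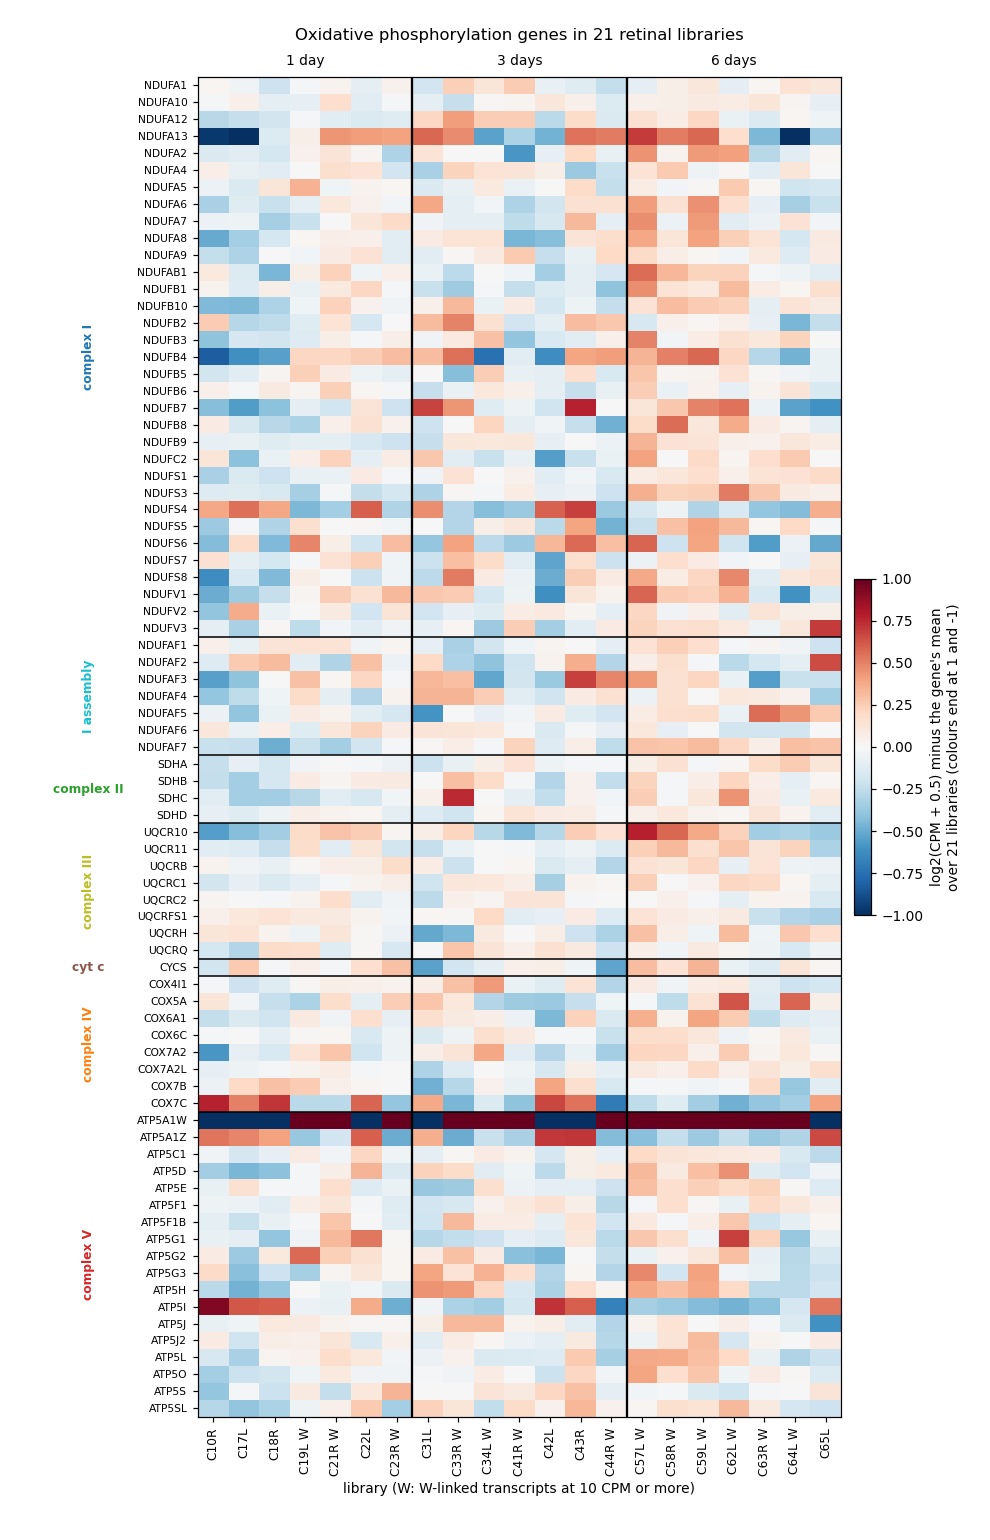
Level of 79 of the 80 members (down the page, by complex) in each of 21 libraries (across, by age; W marks libraries with W-linked transcripts), as log2(CPM + 0.5) minus the gene's mean over all libraries, with colours ending at 1 and -1. Most members stay pale, the rows of NDUFA13 and NDUFB4 change between libraries of 1 age, and those of ATP5A1W, ATP5A1Z, COX7C, NDUFS4 and ATP5I follow the W marks.

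At 6 days against 1 day, the share of members that rose lay under that of all genes. Complex I, the group with the most members, had the most calls. In limma's test of log2(CPM + 0.5), with Benjamini-Hochberg adjustment over all genes tested and a threshold of 0.05, 13 of 80 members rose and 0 fell, which is 16.2% of members, where 30.0% of all genes rose. Unadjusted p-values under 0.05 were found for 20 of 80 members, and for 5446 of 12614 genes tested. By complex, 8 of 34 subunits of complex I rose (23.5%) and 2 of 7 assembly factors (28.6%), both shares under the 30.0% of all genes. So did 2 of 4 genes of complex II, 0 of 8 of complex III, 0 of 8 of complex IV and 1 of 18 of complex V. The members' median log2 fold change was +0.12, beside +0.14 for all genes tested.

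NDUFAF7 is an assembly factor of complex I with a methyltransferase fold, and it lies at chr3:33634847-33644249 of GRCg6a, plus strand. It had 6.89, 8.1 and 8.26 CPM (lowest, median and highest) at 6 days, against 4.53, 5.55 and 6.46 CPM at 1 day. All 7 libraries at 6 days lay above all 7 at 1 day. The log2 fold change was +0.49 (SE 0.08, limma adjusted p = 0.000158), and +0.35 relative to the median gene after median-of-ratios scaling (adjusted p = 0.00217). At 3 days NDUFAF7 stood between those groups at 5.41, 6.62 and 7.73 CPM. PRKD3 overlaps it on the other strand, and whether the counting used the strand is not given.

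NDUFS3, a core subunit of the peripheral arm of complex I at chr5:23024959-23031267, minus strand, had 4.51, 5.19 and 6.45 CPM at 6 days, against 3.34, 3.85 and 4.3 CPM at 1 day. Here too the age groups did not overlap. Its log2 fold change was +0.41 (SE 0.08, limma adjusted p = 0.000763), and after median-of-ratios scaling +0.28 (adjusted p = 0.0211). With a term for W-linked transcripts and that scaling together, the call of NDUFS3 was lost. NDUFB9, a subunit of the membrane arm, was the other member without overlap, at 11.9, 12.5 and 14.7 CPM at 6 days, against 9.96, 10.7 and 10.9 CPM at 1 day. It rose by 0.25 on the log2 scale (limma adjusted p = 0.00376), a call that median-of-ratios scaling ended (adjusted p = 0.24). Groups without overlap, higher at 6 days, were found for 3 of 80 members and for 9.31% of all genes.

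Among the remaining members of complex I, NDUFS1, the core subunit that holds several iron-sulfur clusters, had 39.1, 41.6 and 43.3 CPM at 6 days, against 30.1, 36 and 40.0 CPM at 1 day. Only the top of its range at 1 day reached into that at 6 days. Its log2 fold change was +0.23 (limma adjusted p = 0.00312). INO80D overlaps NDUFS1 on the same strand. NDUFS8, a core iron-sulfur subunit, NDUFV3, an accessory subunit beside the NADH-binding site, and NDUFA8, NDUFB10 and NDUFB3, accessory subunits, rose by 0.26 to 0.39 on the log2 scale (limma adjusted p 0.0192 to 0.0465), and their groups overlapped. NDUFV3 was at 12, 13.9 and 20.6 CPM at 6 days, against 9.83, 11.7 and 12.6 CPM at 1 day, with its highest value in the only library at 6 days without W-linked transcripts. NDUFAF5, an assembly factor known in human cells to hydroxylate the subunit NDUFS7, had 3.87, 4.67 and 6.24 CPM at 6 days, against 2.97, 3.85 and 4.35 CPM at 1 day. Most of its libraries at 6 days lay above the group at 1 day, and it rose by 0.33 (limma adjusted p = 0.0235).

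In complex II, which oxidises succinate and is the only complex here that also acts in the citric acid cycle, the flavoprotein subunit SDHA had 59.3, 65.4 and 71.9 CPM at 6 days, against 51.1, 57.8 and 60.1 CPM at 1 day. These ranges met only at the edge. SDHA rose by 0.20 on the log2 scale (limma adjusted p = 0.00784), and SDHC, a membrane anchor, by 0.33 (adjusted p = 0.0389), with 2.02, 2.32 and 3.09 CPM at 6 days, against 1.57, 1.86 and 2.09 CPM at 1 day. In complex V the member that rose was ATP5O, a subunit of the stalk that holds the catalytic head in place, at 26.8, 31.2 and 39.0 CPM at 6 days, against 23.2, 28.6 and 31.6 CPM at 1 day (log2 fold change +0.22, limma adjusted p = 0.0375). ATP5O overlapped between the ages in most libraries.

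Most of these 13 calls depended on how the libraries were scaled. The median of all genes lay 0.14 above 0 on the log2 scale at 6 days against 1 day on the deposited scale, and at 0.00 after median-of-ratios scaling, under which 2 members rose (NDUFAF7 and NDUFS3) and 3 fell, while 8.25% of all genes rose and 8.91% fell. The 3 that fell under that scaling were NDUFAF6, an assembly factor (log2 fold change -0.28, adjusted p = 0.00614), UQCRFS1, the Rieske iron-sulfur protein of complex III (-0.28, adjusted p = 0.0199), and UQCRC2, a core protein of complex III (-0.18, adjusted p = 0.0339). On the deposited scale their differences were -0.13, -0.14 and -0.03, with no call. The median member stood at -0.03 after that scaling. With W-linked transcripts as a term, 6 members rose on the deposited scale (21.6% of all genes did), namely NDUFAF7, NDUFS3, NDUFB9, NDUFS1, NDUFV3 and SDHA. In a fit restricted to those 13 libraries that hold W-linked transcripts, 2 of 80 members rose, where 6.15% of all genes did (NDUFAF7 by 0.44, adjusted p = 0.03, and NDUFS3 by 0.45, adjusted p = 0.0303). Library titles carry a letter, L or R, with L on 3, 3 and 5 of 7 libraries at 1, 3 and 6 days. With a term for that letter NDUFA8 and NDUFB3 lost their calls (limma adjusted p 0.065 and 0.0717).

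Single libraries also decided calls. NDUFAF7, NDUFS3, NDUFB9, NDUFS1, NDUFV3 and SDHA kept theirs without any 1 library. Each of the other 7 lost it in at least 3 of 21 such fits: NDUFB10 without C10R, C17L, C18R or C58R (largest adjusted p 0.0656), NDUFS8 without C10R, C18R, C57L or C62L (0.0818), NDUFAF5 without C17L, C63R or C64L (0.0579) and ATP5O without C10R, C17L, C18R, C57L, C58R or C59L (0.0949). For SDHC these were C17L, C18R, C19L, C22L, C57L, C59L, C62L and C65L (0.0895), for NDUFB3 C10R, C17L, C18R, C19L, C57L, C62L, C63R and C64L (0.102), and for NDUFA8 C10R, C17L, C18R, C23R, C31L, C43R, C57L, C58R, C59L, C62L, C63R and C65L (0.114). The photoreceptor markers, summed, stood at 2320 ± 196 CPM at 6 days and 1896 ± 147 CPM at 1 day (SD, n = 7 each), and 10 of 15 of them rose, where 30.0% of all genes did. With a term for W-linked transcripts 8 of the 15 rose, where 21.6% of all genes did. After median-of-ratios scaling 6 of the 15 rose and 1 fell. On the deposited scale 3 of 7 amacrine and 2 of 4 horizontal cell markers also rose. So did 1 of 4 bipolar, 1 of 7 ganglion cell and 0 of 6 Müller glia markers. With the W term 2 amacrine, 1 horizontal, 1 bipolar and 0 ganglion cell markers rose. After median-of-ratios scaling 1 amacrine and 1 bipolar marker rose and 1 of each fell, while 0 horizontal and 0 ganglion cell markers were called. The part of these cell types in the results was not tested.

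**Figure D2:**
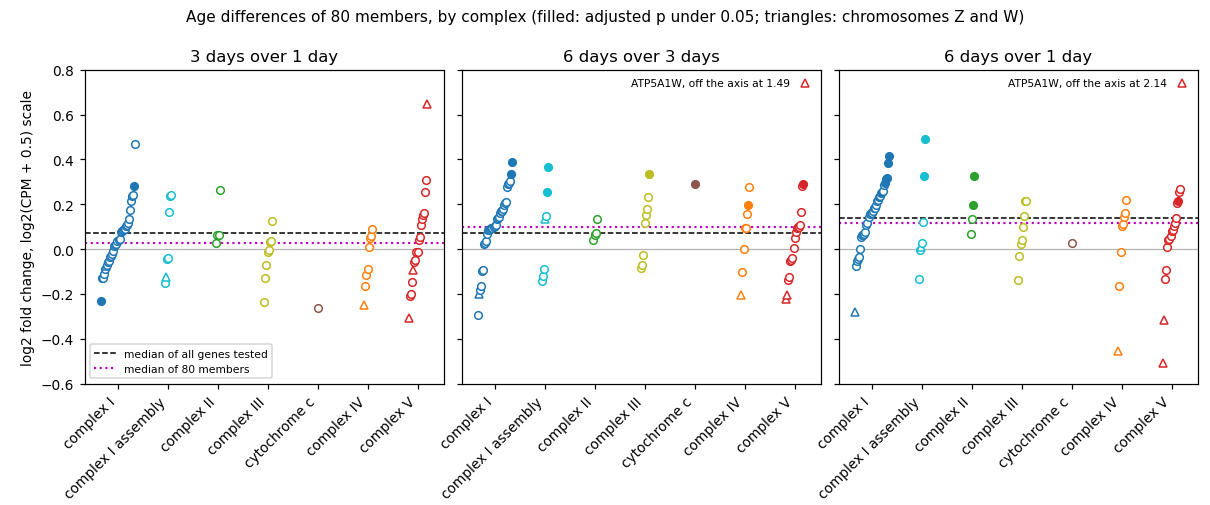
Log2 fold change of each of 80 members on the log2(CPM + 0.5) scale, by complex, in 3 comparisons of age; filled symbols passed an adjusted p of 0.05, triangles are members on chromosomes Z and W, the dashed line is the median of all genes tested and the dotted line that of the 80 members. The dotted line lies beneath the dashed one at 3 days over 1 day (+0.03 and +0.07) and at 6 days over 1 day (+0.12 and +0.14), and above it at 6 days over 3 days (+0.10 and +0.07).

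From 3 to 6 days the calls were spread over more complexes. In this comparison 8 of 80 members rose and 0 fell, where 17.4% of all genes rose and 4.93% fell. An unadjusted p under 0.05 was found for 19 of 80 members, and for 4465 of 12614 genes tested. The 8 that rose were the complex I subunits NDUFB1 and NDUFS3, the assembly factors NDUFAF5 and NDUFAF7, UQCRH of complex III, cytochrome c, COX7A2L of complex IV and ATP5E of complex V. The members' median was +0.10, beside +0.07 for all genes. After median-of-ratios scaling 2 members rose, NDUFB1 and NDUFS3, and 1 fell, the accessory subunit NDUFB2 (log2 fold change -0.37, adjusted p = 0.0229), where 8.63% of all genes rose and 8.51% fell.

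NDUFB1, a small accessory subunit of the membrane arm at chr5:44774254-44776780, minus strand, had 14.2, 16.0 and 18.2 CPM at 1 day, 11.7, 13.4 and 15.6 CPM at 3 days, and 15.9, 17.2 and 21.7 CPM at 6 days. Every library at 6 days lay above every library at 3 days, and NDUFB1 was the only member without overlap in this comparison, where 3.65% of all genes were higher without overlap. It rose by 0.39 on the log2 scale at 6 days against 3 days (SE 0.07, limma adjusted p = 0.000762), by 0.31 after median-of-ratios scaling (adjusted p = 0.00801) and by 0.44 among libraries with W-linked transcripts (adjusted p = 0.0102). Without any 1 library its adjusted p was at most 0.00205. CPSF2 overlaps NDUFB1 on the other strand.

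NDUFS3 had 4.51, 5.19 and 6.45 CPM at 6 days, against 3.41, 4.15 and 4.59 CPM at 3 days, with a narrow overlap, and rose by 0.33 (SE 0.08, limma adjusted p = 0.00522; 0.26 and adjusted p = 0.0257 after median-of-ratios scaling). Among libraries with W-linked transcripts the adjusted p of NDUFS3 was 0.0685. NDUFAF5 rose by 0.37 (adjusted p = 0.0173) and NDUFAF7 by 0.25 (adjusted p = 0.0217), and both lost the call after median-of-ratios scaling (adjusted p 0.0599 and 0.0833) and among libraries with W-linked transcripts (0.126 and 0.152). Without the library C44R at 3 days, the adjusted p of NDUFAF7 was 0.051.

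Cytochrome c, the soluble carrier between complexes III and IV and a trigger of apoptosis when released, had 18.3, 21.5 and 25.6 CPM at 1 day, 14.2, 19.5 and 21.7 CPM at 3 days, and 19, 22.7 and 26.5 CPM at 6 days. Its lowest values, 14.2 and 14.3 CPM, came from C31L and C44R at 3 days. CYCS rose by 0.29 at 6 days against 3 days (SE 0.10, limma adjusted p = 0.0419). That call was lost without C31L, C33R, C44R, C57L, C58R, C59L or C64L (adjusted p up to 0.105) and after median-of-ratios scaling (0.151). It was also lost with no filter (0.058), with a term for W-linked transcripts (0.0591) or for the title letter (0.0738), and among libraries with W-linked transcripts (0.0918).

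UQCRH, the hinge protein that sits beside cytochrome c1, had 11.3, 12.1 and 13 CPM at 1 day, 8.12, 10.2 and 12.6 CPM at 3 days, and 11.4, 13.3 and 14.8 CPM at 6 days, and 4 of its libraries at 3 days lay under the whole group at 6 days. It rose by 0.33 at 6 days against 3 days (SE 0.09, limma adjusted p = 0.0104). ATP5E, the epsilon subunit in the central stalk of complex V, had 15.6, 16.9 and 19.3 CPM at 1 day, 13.1, 16.1 and 19.2 CPM at 3 days, and 15.6, 19.6 and 21.2 CPM at 6 days, and rose by 0.29 (SE 0.08, adjusted p = 0.0114). COX7A2L, a relative of the complex IV subunit COX7A2 known in mice to join complexes III and IV, had 10.9, 11.5 and 12.2 CPM at 1 day, 9.26, 10.9 and 12.1 CPM at 3 days, and 12, 12.4 and 13.3 CPM at 6 days, and rose by 0.20 (SE 0.06, adjusted p = 0.0129). Their ranges at 3 and 6 days overlapped, for COX7A2L only at the edge. These 3 calls held without any 1 library and were lost after median-of-ratios scaling (adjusted p 0.0655, 0.0857 and 0.114 for UQCRH, ATP5E and COX7A2L). Among libraries with W-linked transcripts ATP5E kept its call (0.043), and UQCRH and COX7A2L did not (0.087 and 0.139).

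At 3 days against 1 day, 1 of 80 members rose and 1 fell, where 7.71% of all genes rose and 2.43% fell. An unadjusted p under 0.05 was found for 12 of 80 members, and for 3384 of 12614 genes tested. NDUFA12, an accessory subunit that takes the place of the assembly factor NDUFAF2 late in assembly, had 14.5, 20.4 and 23.6 CPM at 3 days, against 14.4, 15.9 and 17.4 CPM at 1 day. In 5 of 7 libraries at 3 days it lay above the whole group at 1 day, and the other 2, C42L and C44R, lay inside it. NDUFA12 rose by 0.28 (SE 0.08, limma adjusted p = 0.035), and the call was lost without any of C10R, C17L, C18R, C22L, C31L, C33R, C34L, C41R or C43R (adjusted p up to 0.093), after median-of-ratios scaling (0.0762) and among libraries with W-linked transcripts (0.219).

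NDUFB1 was the member that fell, to 11.7, 13.4 and 15.6 CPM at 3 days, against 14.2, 16.0 and 18.2 CPM at 1 day, by 0.23 on the log2 scale (SE 0.07, limma adjusted p = 0.0459). The call was lost without any of C10R, C18R, C21R, C22L, C23R, C31L, C33R, C41R, C44R, C58R, C59L or C65L (adjusted p up to 0.104), with no filter (0.0588), with a term for W-linked transcripts (0.0518), with array weights (0.0702) and among libraries with W-linked transcripts (0.25). Median-of-ratios scaling kept it (-0.31, adjusted p = 0.0144). Under that scaling 0 members rose and 4 fell, where 4.52% of all genes rose and 5.51% fell. The others were CYCS (-0.34, adjusted p = 0.0336), UQCRH (-0.31, adjusted p = 0.0418) and UQCRB, a small subunit of complex III (-0.20, adjusted p = 0.0487). On the deposited scale they differed by -0.26, -0.24 and -0.13, with adjusted p-values of 0.095, 0.0941 and 0.193. The comparisons of 3 days with 1 day and of 6 days with 3 days share the libraries at 3 days, so the lower level of NDUFB1, CYCS and UQCRH at 3 days enters both.

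Mean levels were lowest at 3 days for 28 members (35%), where 25.1% of all genes tested had that order, and highest at 6 days for 53 members (66.2%), where 57.6% of all genes did. These shares carry no test.

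**Figure D3:**
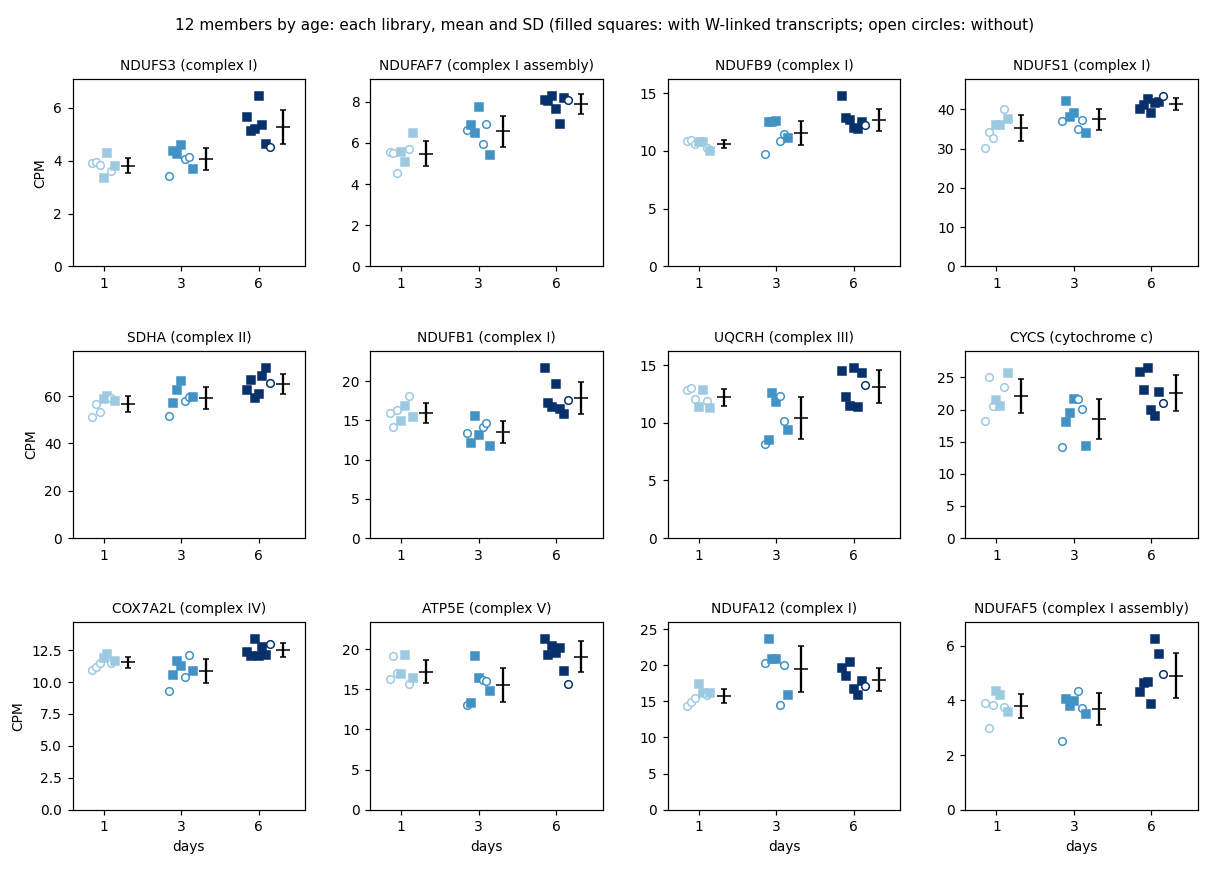
CPM of 12 members in each library at 1, 3 and 6 days (filled squares, with W-linked transcripts; open circles, without), with the mean and SD of 7 libraries beside each age. NDUFS3, NDUFAF7 and NDUFB9 lie higher at 6 days than at 1 day in every library, whereas NDUFB1, UQCRH, CYCS and ATP5E have their lowest mean at 3 days.

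Of the 7 members with the highest mean CPM of their groups, SDHA and CYCS were called, as given above, and the other 5 were not called on the deposited scale. NDUFA10, an accessory subunit of complex I, averaged 47.0 ± 3.27 CPM at 1 day, 46.3 ± 3.87 CPM at 3 days and 49.1 ± 2.18 CPM at 6 days. NDUFAF1, which acts early in the assembly of the membrane arm, averaged 12.9 ± 0.798, 11.6 ± 0.974 and 12.9 ± 1.38 CPM. UQCRC2 averaged 30.9 ± 2.0, 30.9 ± 2.74 and 30.2 ± 1.61 CPM (SD, n = 7 each). None of these was called on the deposited scale, with adjusted p-values from 0.129 upward. For COX4I1, a regulatory subunit of complex IV, the means were 28.3 ± 1.93, 30.5 ± 5.34 and 28.1 ± 2.51 CPM, and for the catalytic beta subunit ATP5F1B 45.4 ± 5.26, 47.2 ± 6.41 and 47.2 ± 4.94 CPM, again with no call (adjusted p from 0.419 upward).

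Genes that encode alternative forms of 1 subunit were read side by side. COX7A2 averaged 8.71 ± 1.67, 9.09 ± 1.73 and 10.1 ± 0.721 CPM at 1, 3 and 6 days, without a call (smallest adjusted p 0.138). Subunit c of the complex V rotor is encoded by ATP5G1, ATP5G2 and ATP5G3. ATP5G1 averaged 5.01 ± 1.19, 4.23 ± 0.477 and 5.36 ± 1.38 CPM, ATP5G2 2.51 ± 0.576, 2.11 ± 0.503 and 2.23 ± 0.368 CPM, and ATP5G3 4.9 ± 0.845, 5.54 ± 1.13 and 5.34 ± 1.3 CPM. No call was made for the subunit c genes (smallest adjusted p 0.142), and reads from such near copies may be shared between them. ATPIF1, the inhibitor of complex V and not itself a member, averaged 1.38 ± 0.309, 1.16 ± 0.204 and 1.56 ± 0.349 CPM with no call.

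The largest differences among members lay between libraries with and without W-linked transcripts. In a limma model with age groups and a term for HINTW at 10 CPM or more, 5 of 80 members were lower in libraries with W-linked transcripts and 1, ATP5A1W, was higher by its position on W, where 3.33% of all genes were lower and 1.34% higher. The 5 lower members are all those on chromosome Z, on which 67.3% of 611 genes tested were lower. Of the 74 members elsewhere, 0 passed the adjusted threshold, where 1.02% of genes of chromosomes 1 to 28 did. An unadjusted p under 0.05 was found for 10 of the 74, and for 1553 of 11631 genes of chromosomes 1 to 28. The median difference was +0.08 for the 74 members, beside +0.06 for genes of those chromosomes.

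The alpha subunit of complex V, which forms the catalytic head together with the beta subunit, has a copy on each sex chromosome, ATP5A1Z at chrZ:2151344-2159327 and ATP5A1W at chrW:1391533-1453514, both on the plus strand. ATP5A1Z had 25.8, 28.3 and 31.9 CPM (lowest, median and highest) in the 13 libraries with W-linked transcripts, against 47.1, 54.3 and 60.4 CPM in the 8 without. ATP5A1W had 14.8, 18.2 and 19.7 CPM in libraries with W-linked transcripts, against 0, 0.0277 and 0.0825 CPM in those without. The groups did not overlap for either copy, and no fold is given for ATP5A1W, since 2 of the 8 libraries were at 0 and the others at most at 0.0825 CPM. ATP5A1Z was lower in libraries with W-linked transcripts (log2 difference -0.93, SE 0.06, limma adjusted p = 2.64e-12).

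Summed, the 2 copies gave 42.8, 46.5 and 49.9 CPM with W-linked transcripts, against 47.1, 54.3 and 60.5 CPM without, with means of 46.6 ± 2.44 CPM (SD, n = 13) and 54.3 ± 5.13 CPM (SD, n = 8). The ratio of those means was 0.858, while that of ATP5A1Z alone was 0.53. The W copy made up 33.4% to 42.6% of the sum in libraries with W-linked transcripts. The copies are similar in sequence, and how reads that match both were assigned is not given.

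COX7C, a small subunit of complex IV, had 5.97, 7.76 and 9.14 CPM with W-linked transcripts, against 13.1, 15 and 17.3 CPM without (log2 difference -0.91, SE 0.07, limma adjusted p = 5.74e-10). NDUFS4, an accessory subunit needed for a stable complex I in mice, had 8.08, 8.77 and 10.8 CPM, against 14.6, 16.2 and 18.4 CPM (-0.84, SE 0.06, adjusted p = 2.31e-10). ATP5I, subunit e of complex V, had 7.54, 9.59 and 11.8 CPM, against 12.1, 19 and 23.9 CPM (-0.84, SE 0.10, adjusted p = 3.77e-07). None of these 3 overlapped between the groups. Only NDUFAF2, the assembly factor that NDUFA12 replaces, did so, at 2.05, 2.49 and 3.27 CPM with W-linked transcripts, against 2.58, 3.58 and 4.79 CPM without (-0.48, SE 0.09, adjusted p = 0.000408).

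Set against the median difference of -0.43 over all Z genes tested, NDUFAF2 lay near it, and 2 to 22 of the 611 Z genes were lower than ATP5A1Z, COX7C, NDUFS4 or ATP5I. No test was made of the members on Z against other Z genes. All 5 calls held after median-of-ratios scaling and without any 1 library. Because libraries with W-linked transcripts were 3, 4 and 6 of 7 at 1, 3 and 6 days, the plain age comparisons of these members mix both differences. The log2 fold changes at 6 days against 1 day were -0.51 for ATP5I, -0.45 for COX7C, -0.32 for ATP5A1Z, -0.28 for NDUFS4 and +0.01 for NDUFAF2, none of them called (smallest adjusted p 0.0753), and with the W term the smallest adjusted p was 0.135. In libraries with W-linked transcripts, ATP5A1Z averaged 28.5, 28.2 and 29.2 CPM at 1, 3 and 6 days.

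**Figure D4:**
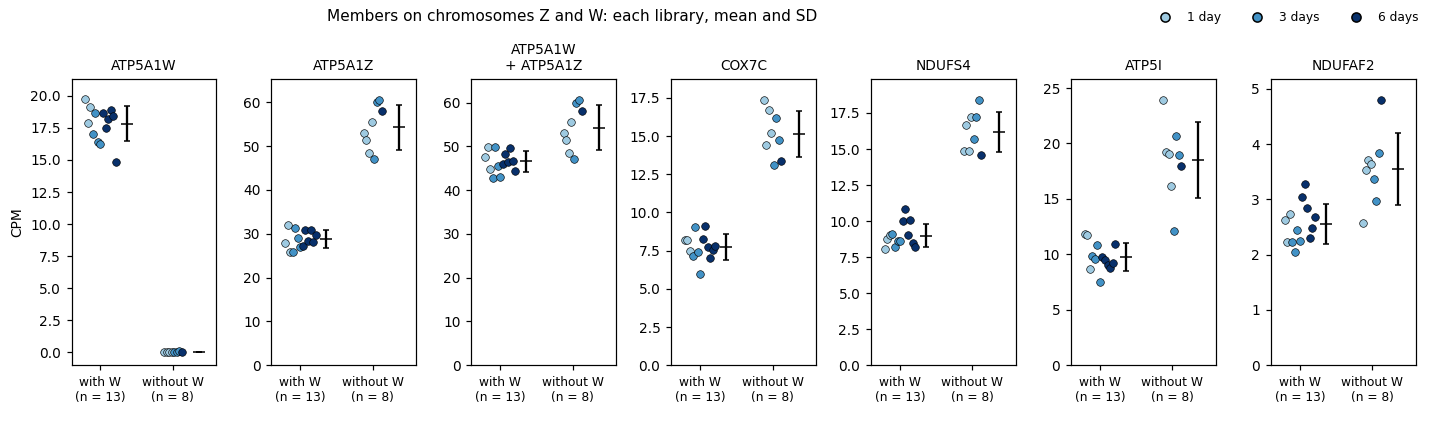
CPM of the 6 members on chromosomes Z and W, and of both ATP5A1 copies summed, in 13 libraries with (left) and 8 libraries without (right) W-linked transcripts, with points coloured by age and the mean and SD beside each group. ATP5A1Z, COX7C, NDUFS4 and ATP5I do not overlap between the groups, while the summed copies do (42.8 to 49.9 CPM with, 47.1 to 60.5 CPM without).

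Among members off chromosomes Z and W, the typical spread between libraries of 1 age was close to that of all genes, with a median within-age SD of 0.182 on the log2 scale, beside 0.185 over all genes tested. NDUFA13, an accessory subunit also known as GRIM-19, stood apart with 0.61. It had 3.91, 9.34 and 12.3 CPM (lowest, median and highest) at 1 day, 6.02, 12.6 and 13.6 CPM at 3 days, and 4.1, 10.1 and 14.9 CPM at 6 days. Among 7498 genes with a mean of at least 5 CPM, 53 had a larger SD. At each age some libraries were low and the others high, and no age comparison called NDUFA13 (smallest adjusted p 0.636).

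Likeness was read as the correlation over the 21 libraries of deviations from the age means, after subtraction of each library's median deviation over all genes tested. The 3 members most like NDUFA13 were NDUFB4, an accessory subunit of complex I (r = 0.92), NDUFV1, the core subunit that binds NADH (r = 0.90), and UQCR10, a small subunit of complex III (r = 0.89). NDUFB4 had 4.54, 9.79 and 10.6 CPM at 1 day, 4.84, 10.5 and 12.6 CPM at 3 days, and 5.94, 9.82 and 12.8 CPM at 6 days. For NDUFV1 the values were 3.27, 4.94 and 6.17 CPM, 2.99, 4.96 and 5.92 CPM, and 2.99, 5.75 and 7.49 CPM, and for UQCR10 6.05, 9.27 and 11.2 CPM, 6.57, 9.58 and 10.9 CPM, and 6.93, 10.8 and 15.9 CPM. All 4 were below their age mean in C10R, C17L, C18R, C34L, C41R, C42L, C63R, C64L and C65L, and above it in the other 12 libraries. The 4 genes were chosen after their values were seen, on the same 21 libraries, and the correlations carry no p.

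Such agreement was not general. Over 2701 pairs of the 74 members off Z and W the median r was 0.16, with a range from -0.70 to 0.92, and within complex I it was 0.13 over 528 pairs. Besides the 3 named, NDUFAF3, ATP5D, ATP5H, NDUFA8, NDUFA6, NDUFB7 and ATP5L reached r = 0.7 or more with NDUFA13, which makes 10 of 73 other members, beside 157 genes or 1.24% of all genes tested. UQCRH ran the other way (r = -0.55 with NDUFA13 and -0.70 with NDUFB4). The mean deviation of the 4 genes, with the library's median deviation subtracted, was set against library measures taken as deviations from their age means. It correlated with the estimated megareads at r = -0.52 and with the share of reads in listed genes at 0.17. For the presence of W-linked transcripts r was 0.27, and for the share of low values at whole multiples of a step -0.30 (n = 21 libraries, which share extraction and library preparation methods). The 9 low libraries include both title letters, L and R, and 4 with W-linked transcripts. Ordered by title number, the low libraries of each age are neighbours. They are C10R, C17L and C18R at 1 day, C34L, C41R and C42L at 3 days, and C63R, C64L and C65L at 6 days. What the title numbers stand for is not given. The part of these measures in the pattern was not tested.

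**Figure D5:**
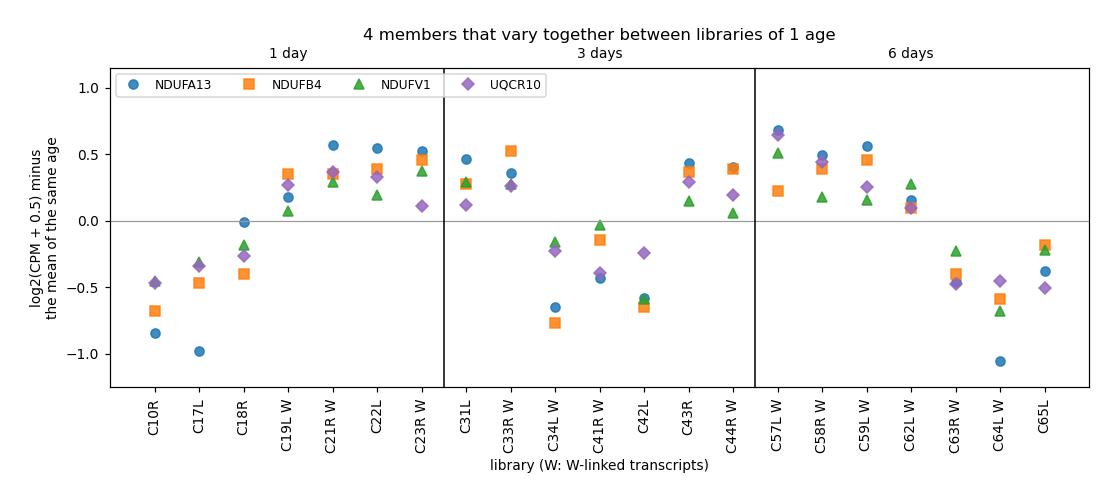
Deviation of NDUFA13, NDUFB4, NDUFV1 and UQCR10 from the mean of the same age, on the log2(CPM + 0.5) scale, in each of 21 libraries (W marks W-linked transcripts). The 4 genes lie below their age mean together in 3 libraries at each age, and NDUFA13 has the widest swings.

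Other genes of the pathway were read from 3 lists. Of 50 other assembly factors, 34 passed the filter, and at 6 days against 1 day 6 rose and 0 fell (17.6% higher, where 30.0% of all genes rose). With a term for W-linked transcripts 3 of the 34 rose, where 21.6% of all genes did. COX10, which makes the heme A precursor of complex IV, averaged 3.18 ± 0.448 CPM at 6 days and 2.25 ± 0.361 CPM at 1 day (SD, n = 7 each; log2 fold change +0.42, limma adjusted p = 0.00294). ACAD9, a factor for complex I, averaged 22.3 ± 1.31 CPM at 6 days and 18.7 ± 1.54 CPM at 1 day (+0.25, adjusted p = 0.00942). TMEM186 and TIMMDC1, further complex I factors, COX11, a copper carrier for complex IV, and HIGD1A also rose. From 3 to 6 days 5 of the 34 rose (14.7%, where 17.4% of all genes rose and 4.93% fell) and 1, COX18, fell. At 3 days against 1 day 0 passed in either direction, where 7.71% of all genes rose and 2.43% fell. Unadjusted p-values under 0.05 were found for 3 of the 34, and for 3384 of 12614 genes tested.

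Of 26 symbols listed for regulators of mitochondrial gene expression, among them TWNK and its alias C10orf2, 20 passed the filter. At 6 days against 1 day 8 of the 20 rose, with 0 lower (40.0% higher, where 30.0% of all genes rose and 2.57% fell). With a term for W-linked transcripts 2 of the 20 rose, where 21.6% of all genes did. The values of single regulators given next are on the deposited scale and without that term, with which not every call named here can have held. POLRMT, the mitochondrial RNA polymerase, averaged 6.38 ± 0.714 CPM at 6 days and 4.31 ± 0.634 CPM at 1 day (+0.52, limma adjusted p = 0.000927). TFAM, which packages mitochondrial DNA and starts its transcription, averaged 12.7 ± 0.858 CPM at 6 days and 10.9 ± 0.75 CPM at 1 day (+0.21, adjusted p = 0.0241). NRF1, a nuclear factor known to bind promoters of respiratory chain genes, stood at 7.24 ± 1.23 CPM at 6 days and 5.88 ± 0.674 CPM at 1 day (+0.27, adjusted p = 0.0461). The coactivator PPARGC1A differed by +0.02 (adjusted p = 0.79) and GABPA by -0.02 (adjusted p = 0.823), neither called.

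The third list covers the citric acid cycle, which feeds NADH and succinate to complexes I and II. It also holds PDHA1, PDHB, DLAT, PDHX and PC, which act on pyruvate and not in the cycle itself. Of its 20 genes, 18 passed the filter. At 6 days against 1 day 7 rose, PDHA1 among them, and 0 fell (38.9% higher, where 30.0% of all genes rose). With a term for W-linked transcripts 4 of the 18 rose, where 21.6% of all genes did. MDH2, malate dehydrogenase, rose and stood at 24.2 ± 2.57 CPM at 6 days and 17.9 ± 2.32 CPM at 1 day (+0.43, limma adjusted p = 0.000387). CS, citrate synthase, the entry enzyme of the cycle, also rose and stood at 3.52 ± 1.01 CPM at 6 days and 2.36 ± 0.648 CPM at 1 day (+0.48, adjusted p = 0.0271). After median-of-ratios scaling the counts of higher and lower genes at 6 days against 1 day were 1 and 2 for the assembly factors, 2 and 2 for the regulators, and 1 and 1 for the cycle list, where 8.25% of all genes rose and 8.91% fell. With so few genes higher, not every rise named above for each list held under that scaling.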

How the data were processed

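Retinal RNA of untreated chickens was measured in 21 libraries, 7 at each of 3 ages. The authors deposited 1 table of CPM values (counts scaled to a fixed total), in which an offset of 0.0001 CPM, subtracted here, was the lowest value of every library. Per the submitters' processing notes, reads were handled with STAR and Partek on GRCg6a. The versions of both tools, the gene annotation, whether counting was stranded and how reads with several matches were treated are not given in the sources used here. Low values were whole multiples of 1 step for 93.96% to 95.1% of values within 0.1 of a step, so whole reads were not recovered and no count test was run. For the same reason depths are estimates, and CPM is relative to a total of which most lies outside the table.

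On the log2(CPM + 0.5) scale, age groups were compared by limma 3.58.1 (R 4.3.3), which estimated a mean for each age and a mean-variance trend, and p-values were adjusted by Benjamini-Hochberg over the genes with at least 0.5 CPM in 7 libraries. Tests are two-sided, and the pseudocount understates changes of low genes. A second model added a term for HINTW at 10 CPM or more. The workflow was tested on simulated data. Alternatives were other pseudocounts and filters, median-of-ratios scaling (libraries set to an equal median ratio to the mean library), quantile normalization, covariates for W-linked transcripts and for the title letter, array weights, only libraries with W-linked transcripts, and leaving out each library. The covariate together with median-of-ratios scaling was added after the data were seen.

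The members, gene lists and tests were chosen with earlier results of these data known. Named with values are, per complex, the member with the highest mean CPM, up to 3 called members per comparison with the largest change, all members on Z or W, alternative forms of 1 subunit, and members at the edge of the filter. NDUFA8, NDUFB10, NDUFB3, NDUFB9, NDUFS1, NDUFB2, NDUFAF6, UQCRFS1, UQCRB and the NDUFA13 set were named after their values were seen. Of 80 members, 21 overlap another gene, 17 of them only on the other strand. Members called in an age comparison among these 17 are NDUFAF7, NDUFB1, NDUFB9, NDUFB10, NDUFA8, NDUFV3, SDHA and ATP5O. Of those that overlap on the same strand, NDUFS1 was called. Promoter and protein sequences were not analysed here. 1 member is not reported here by name.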

Additional observations from a re-analysis of the deposited data

Results flagged for a closer look

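For the members named, each age group of 7 libraries was searched for a highest or lowest library whose gap to the nearest other exceeded 0.568 of the group's range (Dixon's 95% value). Of 141 groups checked, 11 held such a library, and chance gives about 1 in 20 groups. At 6 days, C65L, the only library of that age without W-linked transcripts, stood apart for 7 members. It had 58.1 CPM of ATP5A1Z (the others 27.3 to 30.9 CPM), 0.0309 CPM of ATP5A1W (14.8 to 18.9), 18 CPM of ATP5I (8.79 to 10.9), 13.4 CPM of COX7C (7.01 to 9.14), 14.6 CPM of NDUFS4 (8.19 to 10.8) and 4.79 CPM of NDUFAF2 (2.29 to 3.27). NDUFV3, which is on chromosome 1, was also high in C65L at 20.6 CPM (12 to 14.6). In the remaining groups, C57L had 14.7 CPM of NDUFB9 at 6 days (the others 11.9 to 12.9), C33R had 3.92 CPM of SDHC at 3 days (1.73 to 2.23), C31L had 25.4 CPM of UQCRC2 at 3 days (30.3 to 33.5), and C21R had 56.2 CPM of ATP5F1B at 1 day (39.6 to 46.3).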

How the results depend on the processing

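No paired analysis was possible because the age groups have no title number in common. Counts of called members moved by over 1.5 times under several settings. At 6 days against 1 day (13 members), 8 were called with no filter, 5 with median-of-ratios scaling, 6 with quantile normalization, 6 with the W-linked covariate, 2 in libraries with W-linked transcripts only, and 4 with the covariate and median-of-ratios scaling together. At 6 days against 3 days (8 members), 3 were called with median-of-ratios scaling, 4 with quantile normalization, 2 in libraries with W-linked transcripts only, and 3 with the covariate and that scaling. At 3 days against 1 day (2 members), 1 was called with no filter, 4 with median-of-ratios scaling, 4 with quantile normalization, 1 with the covariate, 0 in libraries with W-linked transcripts only (3, 4 and 6 libraries at 1, 3 and 6 days), and 1 with array weights. Scaling changes the median gene and the smaller sets have fewer libraries; beyond that the cause was not tested. Leaving out 1 library gave 7 to 13 members at 6 days against 1 day, lowest without C17L or C18R (7), with 8 without C10R or C57L; 7 to 12 at 6 days against 3 days; 0 to 7 at 3 days against 1 day, highest without C42L, 0 without C10R, C18R, C22L, C31L, C33R or C41R, and 1 without C17L, C21R, C34L, C43R, C58R, C59L or C65L; and 6 to 7 for W-linked transcripts. Of 4026 alternative values for 126 results of single members, 3810 stayed on the same side of the threshold, 168 lost a call, 48 gained one and 0 changed the direction of a call. Of the 3810, 163 had the other sign, all of them without a call in either fit, 69 under another scaling and 53 with 1 library left out. Depth limits members near 0.5 CPM, such as NDUFAF3 and ATP5S.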
